A study of Homo sapiens with 12 samples.

Results

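MUC1, ZP1, TREM1, EPPIN, CLEC3B, SCUBE3, GRIP2 and MAP7D2 were examined in the human glioblastoma cell line U87 as genes of the cell surface and the secreted space with strongly lowered mRNA in cells given sgPNA-21. These 8 genes, of 35741 in the count table, were picked by name for their low level in both groups that received sgPNA-21, with no numeric threshold. The differences of those groups from control are therefore given as descriptions without a test. What the choice did not use was the group given sgPNA-10b alone, and which of the 8 were also lowered there is the question asked of the data. All 8 genes passed the filter on low counts and were among the 15715 genes tested.

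The study compared 4 groups of 3 libraries of polyadenylated RNA. Cells labelled as miR-10b knockdown received sgPNA-10b at 150 nM (PNA-10b), cells labelled as miR-21 knockdown received sgPNA-21 at 150 nM (PNA-21), and cells labelled as knockdown of both received 150 nM of each (PNA-10b+21), in BNP carriers for 72 h. The control cells, labelled WT, were untreated, and the labels describe no group with empty carriers or an unrelated PNA. Carrier and PNA thus cannot be told apart in any comparison with control, and the combined group held a higher total PNA dose than either single one. The labels do not say whether the 3 libraries of a group came from separate cultures, so p-values measure the spread between these libraries, which may be technical. Library totals ranged over 14026933 to 16969787 counts in PNA-10b, 14634738 to 18305820 counts in PNA-21, 14102709 to 17098686 counts in PNA-10b+21 and 12846676 to 17053150 counts in control.

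A PNA (peptide nucleic acid) carries bases on a backbone resembling that of a protein, and an anti-seed PNA binds the seed of a microRNA, the short stretch by which the microRNA recognises messenger RNAs. Transcripts that carry a match to the seed, mostly in the 3′ untranslated region, are held down by the microRNA and can rise when it is blocked. The 8 genes were lower, not higher, with sgPNA-21, and their products have no single pathway in common. MUC1 is a heavily glycosylated membrane mucin and TREM1 an immunoglobulin-like receptor that amplifies inflammation in myeloid cells. ZP1 is a glycoprotein of the egg coat, CLEC3B (tetranectin) a secreted plasminogen-binding lectin, SCUBE3 a secreted EGF-repeat protein, and EPPIN a secreted protease inhibitor of the male reproductive tract. GRIP2 and MAP7D2 stand apart from this description, since GRIP2 is a cytoplasmic PDZ-domain scaffold that binds glutamate receptors and MAP7D2 a microtubule-binding protein.

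The seed of miR-21-5p is shown because it is the site that sgPNA-21 addresses. The mature sequence, from RefSeq on GRCh38.p14 at chr17:59841273-59841294 on the plus strand, is printed with bases 2 to 8 in capitals.
hsa-miR-21-5p: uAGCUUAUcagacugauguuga
A 7-base match to this seed (ATAAGCT) was found in the longest annotated 3′ untranslated region of 0 of the 8 genes. The regions searched were 147 bases long in CLEC3B, 296 in ZP1, 731 in MUC1, 1343 in TREM1, 1518 in EPPIN, 1712 in MAP7D2, 4374 in SCUBE3 and 4554 in GRIP2. Among the tested genes with such an annotation, 1337 of 12262, or 10.9%, held a match, and their median region was 1650 bases long. Sites of miR-10b were not searched, and mature microRNAs were not measured in these libraries.

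Since the 8 genes were chosen as low in both groups with sgPNA-21, their RefSeq promoter windows were also read. These ran from 250 bases before to 50 after the first start listed, on GRCh38.p14. Of the 8 genes 6 had such a window, with none for SCUBE3 and GRIP2. The 4 windows below belong to ZP1 and TREM1, which did not pass the test in PNA-10b, to MUC1, and to MAP7D2, which held the most motif matches. Capitals mark matches, on either strand, to ACGTG or GCGTG (the core of the hypoxia response element), GGGCGG (the GC box), TGANTCA (the AP-1 site) or TATAAA (the TATA box), and each window is written 5′ to 3′ on the gene's own strand.
ZP1, chr11:60867292-60867591, plus strand: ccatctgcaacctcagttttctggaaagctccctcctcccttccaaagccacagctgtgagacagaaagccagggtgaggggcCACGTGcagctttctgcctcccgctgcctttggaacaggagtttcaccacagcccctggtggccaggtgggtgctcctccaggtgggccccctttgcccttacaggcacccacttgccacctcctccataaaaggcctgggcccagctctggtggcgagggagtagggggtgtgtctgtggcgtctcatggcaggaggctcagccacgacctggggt
TREM1, chr6:41286633-41286932, minus strand: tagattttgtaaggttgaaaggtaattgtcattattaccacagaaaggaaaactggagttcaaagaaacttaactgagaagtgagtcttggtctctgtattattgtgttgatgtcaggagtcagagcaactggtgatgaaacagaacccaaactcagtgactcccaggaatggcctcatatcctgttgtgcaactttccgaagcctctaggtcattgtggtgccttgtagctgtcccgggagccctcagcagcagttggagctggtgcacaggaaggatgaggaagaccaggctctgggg
MUC1, chr1:155192866-155193165, minus strand: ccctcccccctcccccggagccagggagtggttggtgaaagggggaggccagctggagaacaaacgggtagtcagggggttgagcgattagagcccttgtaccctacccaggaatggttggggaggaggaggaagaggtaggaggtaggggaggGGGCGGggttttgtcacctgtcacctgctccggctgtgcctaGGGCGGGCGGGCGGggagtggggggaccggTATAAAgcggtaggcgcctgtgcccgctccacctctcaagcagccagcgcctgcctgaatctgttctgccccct
MAP7D2, chrX:20116858-20117157, minus strand: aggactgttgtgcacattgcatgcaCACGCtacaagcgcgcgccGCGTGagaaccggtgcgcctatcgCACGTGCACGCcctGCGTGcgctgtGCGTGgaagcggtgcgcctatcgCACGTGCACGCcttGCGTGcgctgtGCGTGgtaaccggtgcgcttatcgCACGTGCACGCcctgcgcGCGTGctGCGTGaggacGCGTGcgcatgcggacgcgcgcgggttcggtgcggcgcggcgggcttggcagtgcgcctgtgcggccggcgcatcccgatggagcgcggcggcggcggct
In ZP1 the palindrome CACGTG gave 1 match on each strand, at positions -167 and -166 from the start. The TREM1 window held none of the 4 motifs. MUC1 had 4 GC boxes, 3 of them overlapping in 1 run at -54, -50 and -46, and a TATA box at -24. The MAP7D2 window held 18 matches to ACGTG or GCGTG, many within a repeated block, in a sequence of 71.7% G and C with 54 CpG pairs. Across all 27305 RefSeq genes with a window, the median window had 58.3% G and C and 14 CpG pairs. EPPIN held 1 match to ACGTG or GCGTG, and CLEC3B 3 and a GC box. Of the 27305 genes, 48.4% held ACGTG or GCGTG, 44.6% the GC box, 7.8% TGANTCA and 12% TATAAA. A match describes the letters of a window and says nothing about binding.

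Levels below are CPM, counts scaled to library size with TMM factors, differences are on the log2 scale with the SE of the fit after ±, and passing means an adjusted p (Benjamini-Hochberg, over every tested gene) under 0.05. In PNA-10b, 5 of the 8 genes fell relative to control by edgeR's quasi-likelihood test, while 3.74% of all tested genes were called lower. EPPIN, CLEC3B and GRIP2 had log2 differences of -1.19, -1.08 and -1.05, and the differences of SCUBE3 and MUC1 were -0.73 and -0.46. ZP1 and TREM1 stood at their control level in PNA-10b, and MAP7D2 lay between, with libraries below all control libraries but an adjusted p above 0.05. In 6 of the 8 genes all PNA-10b libraries were below all control libraries, which held for 12.8% of all tested genes, and ZP1 and TREM1 were the exceptions. The median log2 difference of the 8 genes in PNA-10b was -0.62, and that of all tested genes was -0.0015. These control libraries also took part in the choice of the 8 genes, so this comparison is not independent of that choice. The share of 3.74% stands for 587 genes, which were 292 without control replicate 1, 265 when control replicate 3 was left out and 208 when PNA-10b replicate 2 was, while the 5 of the 8 were 5, 4 and 4. In bulk RNA, fewer cells that express a gene and less of its RNA per cell cannot be told apart.

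**Figure D1:**
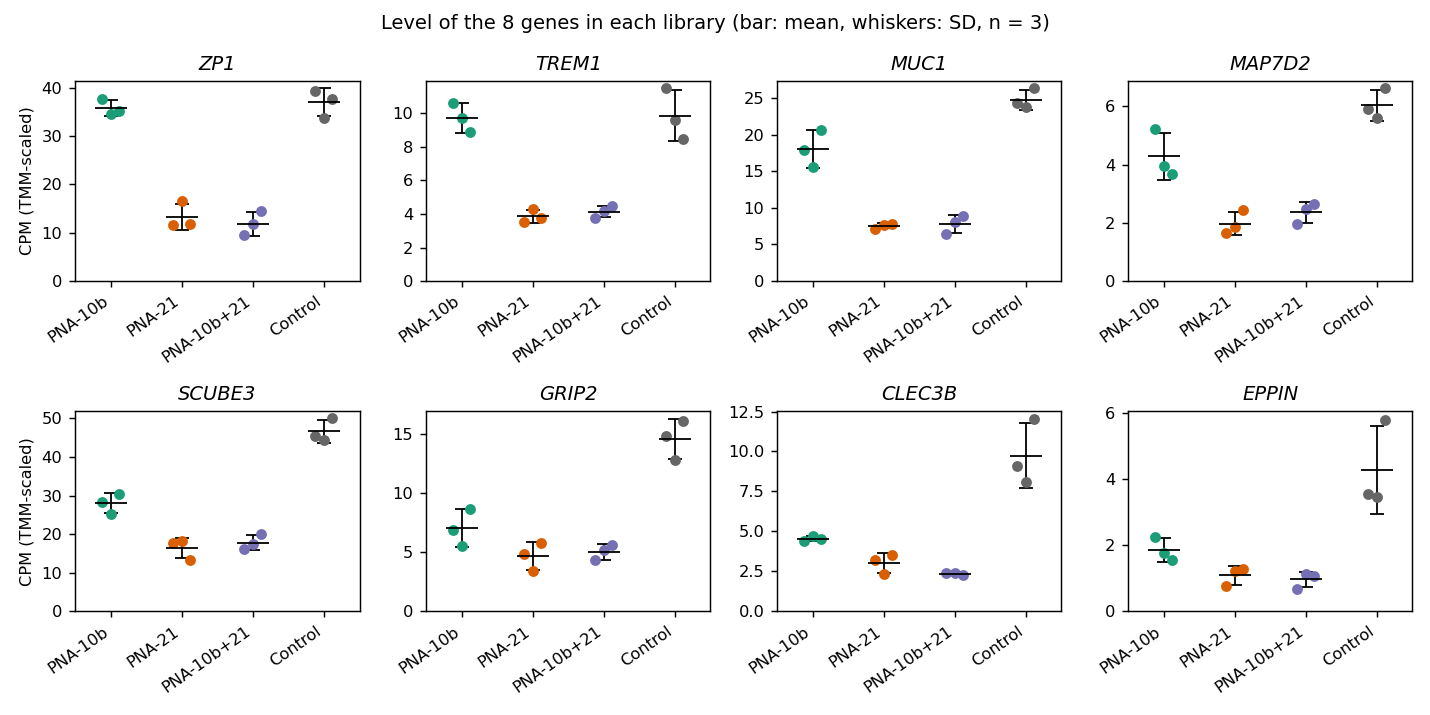
Level of each of the 8 genes in the 12 libraries, in CPM on axes that start at 0, with the group mean as a bar and the SD of 3 libraries as whiskers. ZP1 and TREM1 are as high in PNA-10b as in control (35.8 against 37.0 CPM and 9.75 against 9.87 CPM on average), and the other 6 genes have PNA-10b means between those of the groups with sgPNA-21 and control.

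Among the surface proteins, MUC1 (ENSG00000185499, chr1:155185824-155192916 in hg38, minus strand) had 17.9, 15.6 and 20.6 CPM in PNA-10b. It had 7.14, 7.65 and 7.82 CPM in PNA-21 and 6.47, 8.0 and 8.92 CPM in PNA-10b+21, against 24.3, 23.7 and 26.3 CPM in control. Its 4 groups thus formed 3 levels, with both groups given sgPNA-21 lowest and overlapping, PNA-10b in the middle and control highest, and no overlap between the levels. MUC1 fell in PNA-10b, with a log2 difference of -0.46 ± 0.10 (adjusted p = 0.00886 by edgeR), or 27.1% below control. Without control replicate 3 the call was lost (-0.41, adjusted p = 0.0563), and so it was when replicate 2 of PNA-10b was left out (-0.36, adjusted p = 0.0960), the lowest of its 3 libraries for this gene. The differences from control in the groups that chose the gene were -1.71 ± 0.11 in PNA-21 and -1.67 ± 0.11 in PNA-10b+21.

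TREM1 (ENSG00000124731, chr6:41267926-41286719, minus strand) had 10.7, 9.72 and 8.88 CPM in PNA-10b, 3.54, 4.30 and 3.75 CPM in PNA-21 and 3.78, 4.18 and 4.46 CPM in PNA-10b+21, against 11.5, 9.60 and 8.47 CPM in control. The PNA-10b libraries lay within the range of the control libraries, and the libraries of both groups with sgPNA-21 lay below all of them. In PNA-10b the log2 difference was -0.03 ± 0.12 (95% interval -0.28 to 0.23, adjusted p = 0.938 by edgeR). Its description in the choosing groups was -1.36 ± 0.14 in PNA-21 and -1.26 ± 0.14 in PNA-10b+21. TREM1 is best known from neutrophils and monocytes, and the cultures held little RNA of such cells. Of 10 myeloid markers 8 were in the table and 1, CSF1R, passed the filter, and their summed level was 14.2 to 15.0 CPM in PNA-10b, 11.5 to 14.3 CPM in PNA-21, 12.4 to 14.0 CPM in PNA-10b+21 and 18.1 to 19.1 CPM in control. CSF1R supplied most of it, at 12.8, 13.8 and 13.9 CPM in PNA-10b, 11, 11.1 and 9.72 CPM in PNA-21, 11.1, 12.3 and 11.3 CPM in PNA-10b+21 and 18, 17.3 and 16.9 CPM in control. PTPRC, CD14, CD68, ITGAM, LYZ, FCER1G and CD163 each totalled 5 to 75 counts over the 12 libraries. The sum of the myeloid markers was lower in all treated groups than in control, and its part in the TREM1 result was not tested.

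Of the secreted proteins, ZP1 (ENSG00000149506, chr11:60867562-60875693, plus strand) was the most highly expressed of the 8 per annotated exon length, with a mean of 15.2 CPM per kilobase in control. These lengths include bases shared with other genes, as in CLEC3B, and how reads there were assigned is not stated. ZP1 had 37.6, 34.5 and 35.2 CPM in PNA-10b, 11.7, 16.5 and 11.8 CPM in PNA-21 and 9.46, 11.8 and 14.4 CPM in PNA-10b+21, against 39.4, 33.8 and 37.7 CPM in control. As with TREM1, PNA-10b and control overlapped, and the groups with sgPNA-21 were apart from both. The log2 difference in PNA-10b was -0.05 ± 0.11 (95% interval -0.27 to 0.18, adjusted p = 0.867 by edgeR), beside -1.48 ± 0.12 in PNA-21 and -1.64 ± 0.12 in PNA-10b+21. ZP1 and TREM1 were thus at their low level only in libraries with sgPNA-21.

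CLEC3B (ENSG00000163815, chr3:45001548-45036071, plus strand) had 4.42, 4.72 and 4.50 CPM in PNA-10b, 3.19, 2.32 and 3.54 CPM in PNA-21 and 2.41, 2.41 and 2.26 CPM in PNA-10b+21, against 9.12, 8.07 and 12 CPM in control. All libraries with any sgPNA were below 5 CPM and all control libraries above 8 CPM, and PNA-10b lay above both groups with sgPNA-21 without overlap. CLEC3B fell in PNA-10b, with a log2 difference of -1.08 ± 0.15 (adjusted p = 0.00028 by edgeR), beside -1.66 ± 0.16 in PNA-21 and -2.03 ± 0.17 in PNA-10b+21. Its exons share 604 bases, or 54.7% of its exon length, with EXOSC7, an exosome subunit gene on the same strand, and how the authors' counting assigned reads there is not stated. EXOSC7 did not pass the test in any treated group, at 0.01 ± 0.06 in PNA-10b, at 0.06 ± 0.06 in PNA-21 and at 0.07 ± 0.06 in PNA-10b+21 (adjusted p = 0.979, 0.499 and 0.411).

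SCUBE3 (ENSG00000146197, chr6:35214419-35253079, plus strand) had 28.3, 25.2 and 30.5 CPM in PNA-10b, 17.8, 18.2 and 13.4 CPM in PNA-21 and 16.2, 17.4 and 19.9 CPM in PNA-10b+21, against 45.5, 44.4 and 50 CPM in control. Like MUC1 it showed 3 levels without overlap between them. It fell in PNA-10b, with a log2 difference of -0.73 ± 0.09 (adjusted p = 9.97e-05 by edgeR), the smallest adjusted p of the 8 genes, beside -1.51 ± 0.10 in PNA-21 and -1.39 ± 0.10 in PNA-10b+21.

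EPPIN (ENSG00000101448, chr20:45540626-45547752, minus strand) was the lowest of the 8 per annotated exon length, at 0.686 CPM per kilobase in control, and rested on few reads. Its counts were 31, 30 and 25 in PNA-10b, 13, 18 and 24 in PNA-21 and 12, 16 and 17 in PNA-10b+21, against 53, 59 and 72 in control. Scaled, these were 2.25, 1.77 and 1.56 CPM in PNA-10b, 0.767, 1.23 and 1.27 CPM in PNA-21 and 0.688, 1.13 and 1.07 CPM in PNA-10b+21, against 3.55, 3.48 and 5.81 CPM in control, with control replicate 3 well above the other 2. EPPIN fell in PNA-10b, with a log2 difference of -1.19 ± 0.24 (adjusted p = 0.00472 by edgeR), and without control replicate 3 the difference was -0.92 ± 0.25 (adjusted p = 0.0482). The choosing groups stood at -1.95 ± 0.26 in PNA-21 and -2.14 ± 0.27 in PNA-10b+21. EPPIN-WFDC6, a readthrough gene on the same strand, shares 460 exon bases with EPPIN, or 7.4% of the annotated exon length of EPPIN, and had 20 counts over the 12 libraries. How reads in the shared bases were assigned is not stated, so their part in the EPPIN counts was not tested.

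The remaining pair encodes intracellular proteins. GRIP2 (ENSG00000144596, chr3:14489111-14556075, minus strand) had 6.88, 5.54 and 8.69 CPM in PNA-10b, 4.84, 3.42 and 5.76 CPM in PNA-21 and 4.30, 5.17 and 5.65 CPM in PNA-10b+21, against 14.9, 12.8 and 16.1 CPM in control. It was the only one of the 8 in which PNA-10b overlapped the groups with sgPNA-21, and all treated libraries were below all control libraries. GRIP2 fell in PNA-10b, with a log2 difference of -1.05 ± 0.16 (adjusted p = 0.000385 by edgeR), beside -1.61 ± 0.16 in PNA-21 and -1.53 ± 0.16 in PNA-10b+21. On the opposite strand SLC6A6, the taurine transporter gene, shares 239 exon bases with GRIP2, or 2.0% of its exon length. SLC6A6 held 73726 counts over the 12 libraries and fell as well, with log2 differences of -0.45 ± 0.07 in PNA-10b, of -0.90 ± 0.07 in PNA-21 and of -0.86 ± 0.07 in PNA-10b+21 (adjusted p = 0.000416, 1.45e-08 and 1.63e-08 by edgeR). The library kit marks strand, but whether strand was used in counting is not stated, so the part of SLC6A6 reads in the GRIP2 counts was not tested.

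MAP7D2 (ENSG00000184368, chrX:20006713-20116917, minus strand) had 5.22, 3.95 and 3.69 CPM in PNA-10b, 1.65, 1.84 and 2.43 CPM in PNA-21 and 1.95, 2.48 and 2.64 CPM in PNA-10b+21, against 5.90, 5.6 and 6.62 CPM in control. PNA-10b replicate 1 lay close to the control libraries and the other 2 clearly below them. Its log2 difference in PNA-10b was -0.50 ± 0.17 and did not pass (95% interval -0.84 to -0.15, adjusted p = 0.0787 by edgeR), while without PNA-10b replicate 1 it was -0.65 ± 0.18 and passed (adjusted p = 0.0358). The choosing groups stood at -1.59 ± 0.18 in PNA-21 and -1.36 ± 0.18 in PNA-10b+21.

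**Figure D2:**
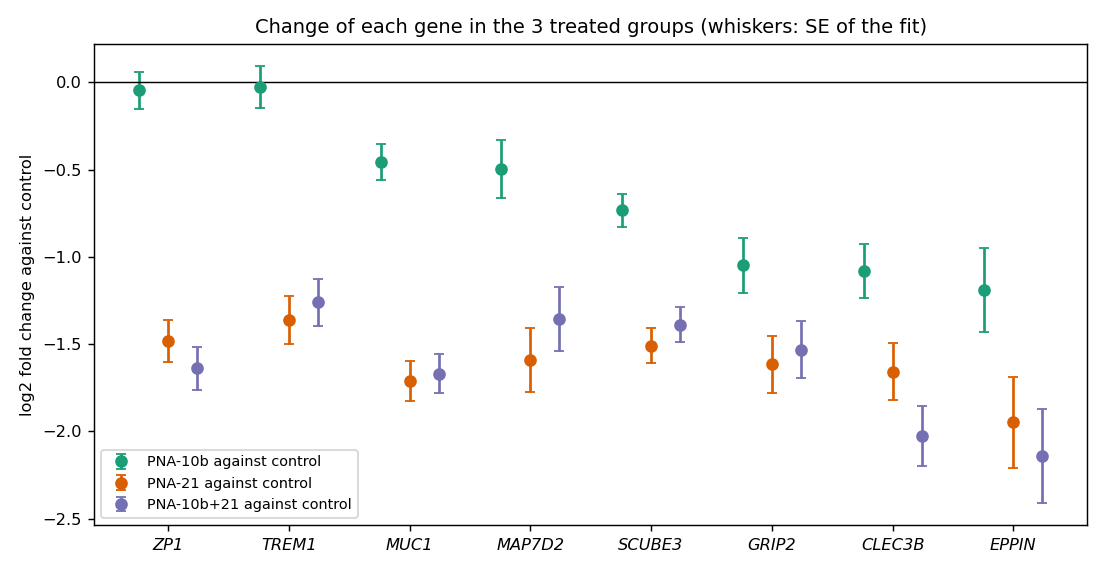
Log2 fold change against control, with the SE of the fit as whiskers, for the 8 genes ordered by their difference in PNA-10b, except that ZP1 stands before TREM1. PNA-10b values run from -0.03 for TREM1 to -1.19 for EPPIN, whereas PNA-21 and PNA-10b+21 values all lie below -1.2, and the choice of the genes favours such low values.

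Ranked from the largest fall among the 15715 tested genes, the 8 held ranks 14 to 86 in the PNA-21 group and ranks 16 to 115 in the combined group, both of which reflect the choice. In PNA-10b their ranks spread from 43 for EPPIN, 65 for CLEC3B and 75 for GRIP2 over 240 for SCUBE3, 637 for MAP7D2 and 757 for MUC1 to 6084 for ZP1 and 6835 for TREM1. By mean level control was highest and PNA-10b next in all 8 genes. The choice favoured this order, since it took genes low against control in both groups with sgPNA-21. For ZP1 and TREM1 that step from PNA-10b to control was within the spread of the libraries.

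Set against PNA-10b, a comparison that uses no control library but does use the PNA-21 libraries of the choice, PNA-21 is given as a description. Its log2 difference was -1.44 ± 0.12 in ZP1, -1.34 ± 0.14 in TREM1, -1.26 ± 0.12 in MUC1 and -1.09 ± 0.19 in MAP7D2. It was nearer to 0 in SCUBE3 (-0.78 ± 0.10), EPPIN (-0.76 ± 0.29), CLEC3B (-0.58 ± 0.18) and GRIP2 (-0.57 ± 0.18). In GRIP2 the PNA-21 and PNA-10b libraries overlapped, and in the other genes PNA-21 lay below, which the choice of genes low in PNA-21 favours. The share of all tested genes with such a separation was not counted, so nothing is read from it.

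What sgPNA-10b added where sgPNA-21 was present can be read from PNA-10b+21 against PNA-21. Both of these groups were used to pick the 8 genes as low in each, so the choice favours a difference near 0, and the values are given as a description without a test. The background of that comparison was 0.0% of all tested genes lower and 0.0% higher by edgeR, from which nothing is read for the 8. At an unadjusted p under 0.05 edgeR had 927 genes lower and 427 higher, and DESeq2 called 25 lower and 0 higher after adjustment. The libraries of PNA-10b+21 and PNA-21 overlapped in all 8 genes. The log2 differences were -0.37 ± 0.20 in CLEC3B (95% interval -0.78 to 0.04), -0.19 ± 0.33 in EPPIN (-0.87 to 0.49) and -0.16 ± 0.14 in ZP1 (-0.44 to 0.13). They were 0.04 ± 0.13 in MUC1 (-0.23 to 0.31), 0.08 ± 0.19 in GRIP2 (-0.31 to 0.48), 0.10 ± 0.15 in TREM1 (-0.22 to 0.42), 0.12 ± 0.11 in SCUBE3 (-0.11 to 0.35) and 0.23 ± 0.21 in MAP7D2 (-0.21 to 0.67).

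**Figure D3:**
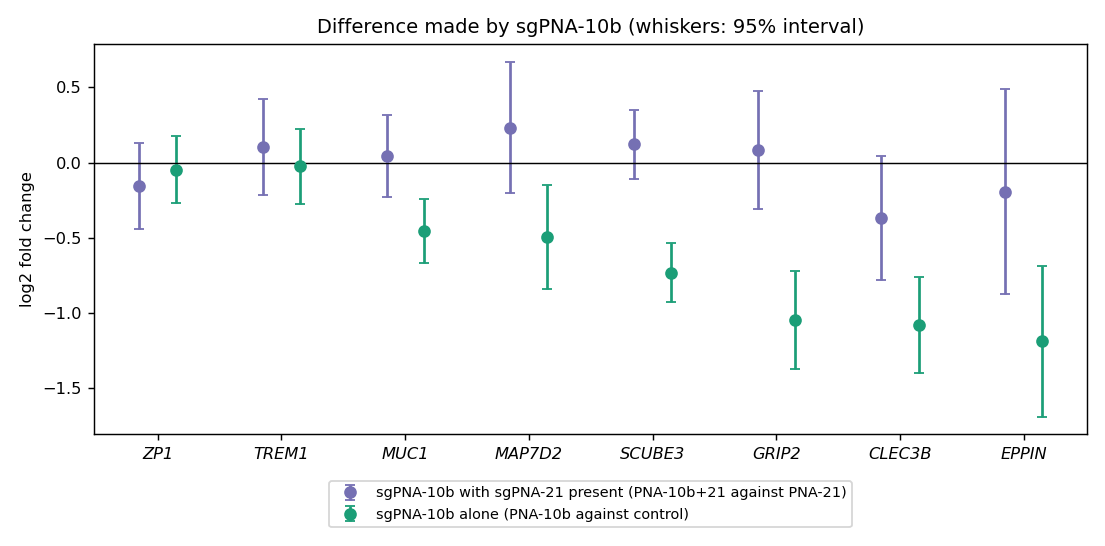
Log2 difference made by sgPNA-10b in the presence of sgPNA-21 (PNA-10b+21 against PNA-21) and alone (PNA-10b against control), with 95% intervals as whiskers. Alone, all intervals but those of ZP1 and TREM1 lie below 0, and with sgPNA-21 present all 8 include 0, which the choice of genes low in both of those groups favours.

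Whether the response to both sgPNAs differed from the sum of the single ones is measured by the interaction, the difference in PNA-10b+21 against PNA-21 minus that in PNA-10b against control. It rests on libraries that chose the genes, whose low level in both groups with sgPNA-21 favours a value above 0 where PNA-10b fell, and is given without a test. It was 1.13 ± 0.25 in GRIP2, 1.00 ± 0.41 in EPPIN, 0.86 ± 0.15 in SCUBE3, 0.73 ± 0.27 in MAP7D2, 0.71 ± 0.25 in CLEC3B and 0.50 ± 0.17 in MUC1, all in the direction of a smaller fall than the sum. In TREM1 it was 0.13 ± 0.20 and in ZP1 -0.11 ± 0.17, within their errors of 0.

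Relatives of the 8 genes and genes they are known to work with were read in the same fit, and every difference given for them as "by" or "at" a value is a log2 difference from control ± SE. Of 126 genes listed as relatives, by family, domain or function, 101 were in the table and 52 were tested. Not all share a family or domain with the gene they are listed for, as with MCAM, CRIM1, DCLK1 and DCLK2. In PNA-10b 6 of the 52 fell (11.5%) and 0 rose, where 3.74% of all tested genes fell and 2.75% rose. The count of 0 had 7 genes at an unadjusted p under 0.05 and was 0 by DESeq2 as well. In PNA-21 19 fell (36.5%) and 8 rose (15.4%), where 14.6% of all tested genes fell and 15.2% rose, and in PNA-10b+21 16 fell (30.8%) and 5 rose (9.62%), where 13.4% fell and 13.6% rose. The median log2 differences of the 52 were 0.0026 (PNA-10b), -0.15 (PNA-21) and -0.13 (PNA-10b+21), and those of all tested genes were -0.0015, -0.0062 and -0.0033. Leaving out PNA-10b replicate 2 brought the count of 6 to 3, and leaving out PNA-10b replicate 3 brought the count of 0 to 1. The 5 that rose in PNA-10b+21 became 3 when control replicate 1 was left out and 2 when PNA-10b+21 replicate 1 was.

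The relatives of EPPIN with a WAP or Kunitz inhibitor domain included large falls. Of 7 tested, 2 fell in PNA-10b, 4 fell in PNA-21 and 1 rose, and 5 fell in PNA-10b+21 and 1 rose. Of all tested genes 3.74% fell in PNA-10b, 14.6% fell and 15.2% rose in PNA-21, and 13.4% fell and 13.6% rose in PNA-10b+21. WFDC3 (chr20:45747944-45791932) averaged 11.9 ± 0.844 CPM in PNA-10b, 6.72 ± 0.675 CPM in PNA-21 and 5.92 ± 0.975 CPM in PNA-10b+21, against 15.5 ± 1.57 CPM in control (SD, n = 3 each). It fell in all 3, with log2 differences of -0.38 ± 0.11 in PNA-10b, of -1.20 ± 0.12 in PNA-21 and of -1.40 ± 0.12 in PNA-10b+21 (adjusted p = 0.0418, 3.98e-07 and 6.69e-08 by edgeR). WFDC8, which lies next to EPPIN at chr20:45551153-45579326, had 5, 12 and 9 counts in PNA-10b, 3, 4 and 5 in PNA-21 and 4, 3 and 3 in PNA-10b+21, against 14, 21 and 35 in control, and fell in the 3 treated groups with log2 differences of -1.53 ± 0.39, -2.72 ± 0.45 and -2.89 ± 0.47 (adjusted p = 0.0200, 0.000123 and 9.64e-05). It passed the filter largely through its control libraries, so a difference of this direction was favoured. WFDC10B and WFDC13, whose spans overlap on opposite strands, fell in PNA-21, with log2 differences of -1.49 ± 0.34 and -1.59 ± 0.42 (adjusted p = 0.00239 and 0.00668) and did not pass in PNA-10b, at -0.62 ± 0.31 and 0.03 ± 0.35. In PNA-21 WFDC10B had 5, 11 and 13 counts and WFDC13 had 5, 10 and 8. Both passed the filter largely through their control and PNA-10b libraries, so a fall in PNA-21 was favoured for them too.

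PI3, the elastase inhibitor elafin at the other end of this gene group, did not pass in any treated group, with log2 differences of 0.80 ± 0.26 in PNA-10b, of 0.67 ± 0.26 in PNA-21 and of 0.25 ± 0.27 in PNA-10b+21 (adjusted p = 0.0703, 0.0566 and 0.553 by edgeR). TFPI2, a Kunitz inhibitor on chromosome 7, went the other way. It averaged 360.0 ± 1.87 CPM in PNA-10b, 572 ± 32.5 CPM in PNA-21 and 577 ± 78.7 CPM in PNA-10b+21, against 320 ± 15.8 CPM in control, and rose by 0.84 ± 0.07 in PNA-21 and 0.85 ± 0.07 in PNA-10b+21 (adjusted p = 5.96e-08 and 4.34e-08).

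**Figure D4:**
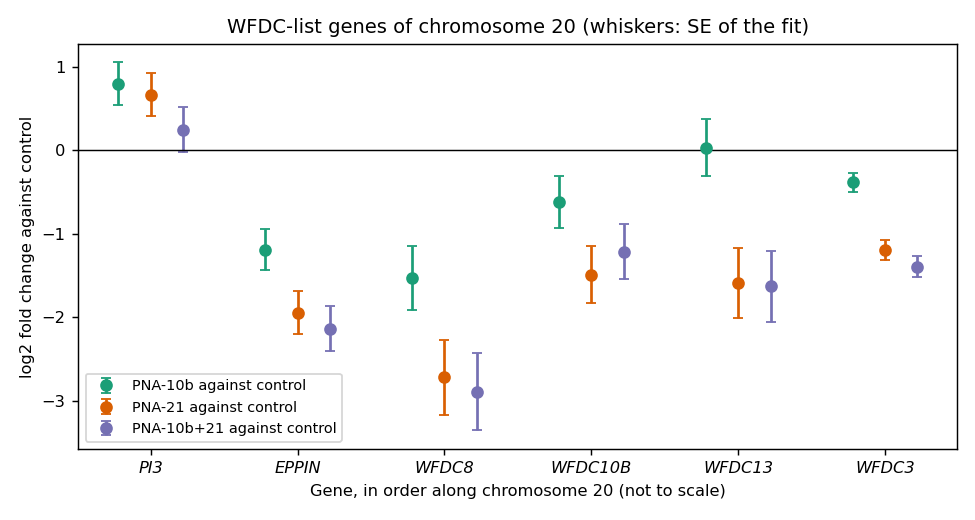
Log2 fold change against control of EPPIN and the 5 tested genes of its inhibitor list on chromosome 20, in chromosomal order and not to scale, with the SE of the fit as whiskers. EPPIN, WFDC8, WFDC10B, WFDC13 and WFDC3 lie at -1.20 or below in PNA-21, and PI3 at 0.67. The filter on low counts favoured the falls of WFDC8, WFDC10B and WFDC13 there.

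The other families were mixed. Of the mucin list 3 genes were tested, and MCAM, an adhesion molecule, fell in PNA-10b, with a log2 difference of -0.48 ± 0.11, and in PNA-21, with one of -0.37 ± 0.10 (adjusted p = 0.00869 and 0.0106 by edgeR), while CD164, a sialomucin, rose in PNA-21 by 0.45 ± 0.10 (adjusted p = 0.00273). Of the zona pellucida domain list 3 were tested. ENG, the endothelial TGF-beta coreceptor, fell in PNA-10b, with a log2 difference of -0.43 ± 0.07, and likewise in PNA-21 (-0.50 ± 0.07) and in PNA-10b+21 (-0.42 ± 0.07, adjusted p = 0.000482, 1.07e-05 and 8.31e-05). ZP3, the egg-coat partner of ZP1, averaged 2.79 ± 0.264 CPM in PNA-10b, 3.09 ± 0.252 CPM in PNA-21 and 3.08 ± 0.399 CPM in PNA-10b+21, against 2.08 ± 0.291 CPM in control, and rose in PNA-21 by 0.58 ± 0.19 (adjusted p = 0.0224), opposite to ZP1. None of the 10 listed relatives of TREM1 passed the filter.

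Of 7 tested lectin-domain relatives of CLEC3B, MRC2, a collagen uptake receptor, fell in PNA-10b, with a log2 difference of -0.46 ± 0.06, and in PNA-21, with one of -0.50 ± 0.06 (adjusted p = 9.90e-05 and 3.21e-06 by edgeR). LAYN, the hyaluronan receptor layilin, fell in PNA-21, with a log2 difference of -0.73 ± 0.07 (adjusted p = 3.36e-07), and THBD, thrombomodulin, rose there by 0.74 ± 0.19 (adjusted p = 0.00579). Among 5 tested genes listed as relatives of SCUBE3, CRIM1 and MEGF9 fell in PNA-21, with log2 differences of -0.25 ± 0.07 and -0.21 ± 0.06 (adjusted p = 0.00865 and 0.0176). Among 15 PDZ scaffolds, in PNA-21 5 fell and 1 rose, with the polarity scaffold DLG1 at -0.24 ± 0.05 (adjusted p = 0.0008) and syntenin, SDCBP, at 0.33 ± 0.06 (adjusted p = 0.000463). Among 12 microtubule-associated relatives of MAP7D2, in PNA-21 3 fell and 3 rose, with DCLK1 at 0.61 ± 0.10 and DCLK2 at -0.36 ± 0.06 (adjusted p = 8.68e-05 and 0.000239). Beside these counts, 14.6% of all tested genes fell and 15.2% rose in PNA-21, and nothing is read from counts in lists this small.

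Of 125 listed ligands, receptors, substrates and processing enzymes of the 8 proteins, 113 were in the table and 86 were tested. In PNA-10b 9 fell (10.5%) and 4 rose (4.65%), in PNA-21 25 fell (29.1%) and 16 rose (18.6%), and in PNA-10b+21 24 fell (27.9%) and 15 rose (17.4%). Beside these stand the shares of all tested genes, with 3.74% lower and 2.75% higher in PNA-10b, 14.6% and 15.2% in PNA-21, and 13.4% and 13.6% in PNA-10b+21, so the shares that rose in PNA-21 and PNA-10b+21 were near those of all genes. Leaving out control replicate 1 or 3 brought the count of 9 to 3, and leaving out PNA-10b replicate 2 brought it to 2. The count of 4 became 1 when control replicate 1, control replicate 3 or PNA-10b replicate 2 was left out, and 2 when PNA-10b replicate 1 or PNA-10b+21 replicate 2 was. The median log2 differences were -0.01 (PNA-10b), -0.03 (PNA-21) and -0.06 (PNA-10b+21).

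Around MUC1, its adhesion ligand ICAM1 averaged 15.2 ± 0.658 CPM in PNA-10b, 11.4 ± 0.324 CPM in PNA-21 and 11.6 ± 0.962 CPM in PNA-10b+21, against 20.6 ± 2.05 CPM in control. ICAM1 fell, with log2 differences of -0.44 ± 0.09 in PNA-10b and -0.85 ± 0.09 in PNA-21 (adjusted p = 0.00446 and 9.34e-07 by edgeR). The galectin LGALS3, which binds MUC1 sugars, changed by -0.23 ± 0.06 in PNA-10b and -0.38 ± 0.06 in PNA-21 (adjusted p = 0.0242 and 8.61e-05), and the kinase SRC, which phosphorylates the MUC1 tail, rose by 0.20 ± 0.05 and 0.33 ± 0.05 in the same groups (adjusted p = 0.0248 and 7.62e-05). Downstream of TREM1 signalling, the cytokine gene IL1B averaged 65.6 ± 2.46 CPM in PNA-10b, 81.7 ± 8.83 CPM in PNA-21 and 80.0 ± 8.77 CPM in PNA-10b+21, against 44.9 ± 1.67 CPM in control. IL1B rose by 0.55 ± 0.08 in PNA-10b and 0.86 ± 0.08 in PNA-21 (adjusted p = 0.000385 and 1.65e-07), opposite to TREM1 in PNA-21, and TYROBP, the adaptor that TREM1 needs to signal, is not among the genes analysed here.

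Around CLEC3B, the plasminogen activator gene PLAT changed by -0.40 ± 0.09 in PNA-10b and -0.79 ± 0.09 in PNA-21 (adjusted p = 0.00978 and 2.29e-06 by edgeR). SERPINE2, an inhibitor of such activators, fell in PNA-21, with a log2 difference of -0.31 ± 0.05, as did S100A10, part of a plasminogen receptor, with one of -0.40 ± 0.06 (adjusted p = 4.38e-05 and 0.000107). Around SCUBE3, MMP2, a protease reported to release SCUBE3 fragments, averaged 2379 ± 85.2 CPM in PNA-10b, 2118 ± 58.8 CPM in PNA-21 and 2192 ± 93.4 CPM in PNA-10b+21, against 2784 ± 218 CPM in control. MMP2 changed by -0.23 ± 0.06 in PNA-10b and -0.39 ± 0.06 in PNA-21 (adjusted p = 0.0216 and 4.11e-05), TGFBR2 fell in PNA-21, with a log2 difference of -0.29 ± 0.05, and BMP2 rose there by 0.78 ± 0.12 (adjusted p = 0.000277 and 5.67e-05). Of the genes around GRIP2, GRIA3, an AMPA receptor subunit of the kind GRIP proteins bind, changed by -0.42 ± 0.09 in PNA-10b and -0.72 ± 0.09 in PNA-21 (adjusted p = 0.0086 and 1.05e-05). The kinesin heavy chain genes KIF5C and KIF5A, motors listed for both GRIP2 and MAP7D2, moved apart in PNA-21, with KIF5C at 0.50 ± 0.09 and KIF5A at -0.32 ± 0.06 (adjusted p = 0.000239 and 0.000518).

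Over the 12 libraries the log2 levels of the 8 genes were correlated with each other at Pearson r between 0.738, for TREM1 with GRIP2, and 0.976, for TREM1 with ZP1. These libraries share the groups that chose the genes, so the values only describe how alike the profiles were. The genes most like the mean profile of the 8 were PAM, a peptide-amidating enzyme (r = 0.997), the lysyl oxidase LOXL3 (r = 0.997), SEMA5A, a semaphorin (r = 0.992), the collagen-modifying PLOD1 (r = 0.992) and the secreted FSTL1 (r = 0.991). PAM had 840, 805 and 822 CPM in PNA-10b, 607, 645 and 645 CPM in PNA-21 and 585, 647 and 655 CPM in PNA-10b+21, against 957, 926 and 1027 CPM in control. The same 3-level order as in MUC1 and SCUBE3 is seen in it, at a much higher level and with smaller differences.

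The profile of ZP1 was most like those of CA9, a carbonic anhydrase known to be induced by low oxygen (r = 0.995), and SYNPO, an actin-binding protein (r = 0.993). CA9 had 252, 250 and 248 CPM in PNA-10b, 127, 159 and 129 CPM in PNA-21 and 107, 130 and 141 CPM in PNA-10b+21, against 287, 269 and 262 CPM in control. TREM1 was closest to the carboxypeptidase CPA4 (r = 0.979) and to IGFBP3, which binds insulin-like growth factors (r = 0.975). IGFBP3 had 660, 661 and 645 CPM in PNA-10b, 229, 284 and 284 CPM in PNA-21 and 257, 270 and 244 CPM in PNA-10b+21, against 621, 624 and 622 CPM in control. The nearest profiles of the other genes were SIRPA and OSMR for MUC1, CCN4 and ERAP2 for CLEC3B, EHD2 and COL5A1 for SCUBE3, PCDHGB2 and ABCC3 for EPPIN, CFAP44 and BMP1 for GRIP2, and TENM2 and TIMP3 for MAP7D2. CCN4, a matricellular signalling protein, was at -0.90 ± 0.11 (PNA-10b), -1.42 ± 0.11 (PNA-21) and -1.48 ± 0.11 (PNA-10b+21) relative to control, on the log2 scale, and stood near CLEC3B in size. BMP1, a procollagen protease, was at -0.46 ± 0.07, -0.77 ± 0.07 and -0.73 ± 0.07 in the same groups.

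The label of the cells was set beside marker genes. Of 14 glioma and astrocyte markers 13 were in the table and 10 were tested, with VIM at a mean of 1867 CPM in PNA-10b, 1717 CPM in PNA-21, 1707 CPM in PNA-10b+21 and 1842 CPM in control. CD44 was at 1450, 1356, 1325 and 1454 CPM in the same order of groups. Other genes of the list differed more between groups, with SLC1A3, a glutamate transporter, at 61.9, 48.2 and 47.5 CPM in the treated groups in that order, against 91.6 CPM in control, and CHI3L1 at 845, 1343 and 1534 CPM, against 1392 CPM in control. Summed, the list was at 4385 to 4737 CPM in PNA-10b, 4739 to 4806 CPM in PNA-21 and 4761 to 5059 CPM in PNA-10b+21, against 4780 to 5381 CPM in control, and its part in the results was not tested. The markers GFAP (1.87 to 4.09 CPM between group means), S100B, ALDH1L1 and SOX2 were low or under the filter. MUC1 is best known from epithelia. Of 9 epithelial markers 8 were in the table and 3 were tested, and they summed to 6.07 to 7.19 CPM in PNA-10b, 6.15 to 7.02 CPM in PNA-21 and 6.88 to 7.60 CPM in PNA-10b+21, against 7.10 to 7.48 CPM in control. In this sum all PNA-21 libraries were below all control libraries by a small margin, while PNA-10b and PNA-10b+21 overlapped control. KRT8 and CLDN4 had lower means in PNA-21 than in control (2.65 against 3.26 CPM and 2.37 against 2.77 CPM), and EPCAM a higher one (1.264 against 1.075 CPM). The part of this sum in the MUC1 result was not tested. CDH1, which defines epithelial cells, had 2 counts over the 12 libraries. Germ cells and epididymis are where ZP1 and EPPIN are best known. Of their 9 markers 5 were in the table and 2 were tested, and these 5 summed to 3.30 to 3.56 CPM in PNA-10b, 3.78 to 4.91 CPM in PNA-21 and 3.58 to 3.90 CPM in PNA-10b+21, against 3.30 to 3.49 CPM in control. ZP3 made up most of this sum, while DAZL, the other tested marker, averaged 0.296 CPM in PNA-10b, 0.491 CPM in PNA-21 and 0.358 CPM in PNA-10b+21, against 0.728 CPM in control, and the part of these genes in the results for ZP1 and EPPIN was not tested. Summed neuronal markers were 150 to 163 CPM in PNA-10b, 137 to 147 CPM in PNA-21 and 134 to 146 CPM in PNA-10b+21, against 164 to 173 CPM in control, with 4 of 9 markers tested, and their part in the results for GRIP2 and MAP7D2 was not tested.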

How the data were processed

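Polyadenylated RNA of U87 cells was sequenced in 12 libraries. The deposited values are raw read counts of Ensembl genes, from the authors, in a single table. HISAT2 2.1.0, SAMtools 1.7, HTSeq 0.11.0 and hg38 are named in the submitters' processing notes, and a strand-marking mRNA kit in the labels' protocols. Neither the strand setting nor the annotation release of the counting is stated in what was used here. Coordinates, exon lengths and 3′ untranslated regions came from GENCODE 29, which matched 34564 of 35741 genes.

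Genes were kept by filterByExpr of edgeR 4.0.16 (minimum count 10), which left 15715 genes with 99.8% of counts. All 12 libraries entered 1 quasi-likelihood fit with TMM scaling (R 4.3.3), and p-values were Benjamini-Hochberg adjusted over all 15715 genes, with a threshold of 0.05. Errors of log2 fold changes are SE, and CPM are TMM-scaled. The test was tested on simulated data with 200 changed genes. PNA-10b+21 against PNA-21 had been planned as a test of the 8 genes and is given as a description, since both groups chose them. Alternatives, DESeq2 1.42.0 among them, are in the closing section. The 8 genes and all lists were chosen with earlier results of these data known. Besides the 8, named genes were those most alike in profile (2 per gene, 5 for the mean) and, per list, up to 3 called in PNA-21 and 2 in PNA-10b by smallest p; others named were chosen after their values were seen. One result that this rule would name is not reported here.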

Additional observations from a re-analysis of the deposited data

How the results depend on the processing

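The count of 5 genes of the 8 that fell in PNA-10b was 4 to 6 under all alternatives. DESeq2 called 4, with no adjusted p for EPPIN. Leaving out 1 library gave 4 to 6, as MUC1 was lost without control replicate 3 or PNA-10b replicate 2 and MAP7D2 passed without PNA-10b replicate 1. CLEC3B, SCUBE3 and GRIP2 passed under every alternative run, and no called direction of the 8 reversed. Over all genes, the 587 lower in PNA-10b were 208 to 676, and the 432 higher were 98 to 576, with 1 library left out. The lowest came from leaving out PNA-10b replicate 2. Leaving out control replicate 1 gave 292 and 178, leaving out control replicate 3 gave 265 and 152, and with no filter on low counts 690 genes were higher. In PNA-10b+21 against PNA-21 the 0 lower genes became 25 with DESeq2, 300 with no filter and 47 with only the groups compared, and the 0 higher became 32 with no filter and 1 with only the groups compared.

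Of the lists, the 6 relatives lower in PNA-10b were 3 to 8 and the 0 higher were 0 to 1 with 1 library left out, 4 with no filter and 1 with a replicate block. The 5 relatives higher in PNA-10b+21 were 2 to 6. The 9 partner genes lower in PNA-10b were 2 to 13, and the 4 higher were 1 to 6, 10 with no filter and 7 with a replicate block. The cause was not tested. Deviations of libraries with the same replicate number correlated at -0.058 to 0.109. Between PNA-21 and control these values were 0.053 to 0.109, and those of different numbers were -0.058 to -0.0007. In the other pairs of groups the ranges for same and different numbers overlapped. Whether the numbers pair the libraries was not tested. With a replicate block 5 of the 8 genes still fell in PNA-10b, where 709 of all tested genes were lower and 562 higher. EPPIN, at 12 to 72 counts per library, and MAP7D2, at 27 to 95, limit what this depth can show.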
